A study of Mus musculus with 4 samples.

Results

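Genes of actin filament crosslinking and capping were followed through 2 H3K27ac peak lists of mouse chondrocytes, 1 from a culture labelled as Hdac3 knockout and 1 from its control. The genes were the crosslinkers Actn1, Actn4 and Flna, the capping protein subunits Capza1, Capza2 and Capzb, the actinin partner Synpo, and Actb, which encodes beta-actin. They are 8 of 21883 protein-coding genes in the RefSeq table used here, and they were chosen by name with earlier results of these data known. Each deposited peak that overlapped a gene body or the 10 kb on either side of it was taken. This gave 105 of 13130 peaks in the Cre library and 81 of 12873 in the GFP library. The peak values therefore describe the genes and were not tested.

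The cells were primary C57Bl/6 chondrocytes kept ex vivo in micromass culture, in which cells plated at high density lay down cartilage matrix. One culture was transduced with Cre recombinase adenovirus and is labelled hdac3-knockout. The other received a GFP control adenovirus and is labelled wild-type, so both carried an adenovirus. ChIP-seq of each culture gave 1 library for H3K27ac, an acetylation of histone H3 found at active enhancers and promoters. A further 2 input libraries were not analysed here. The labels do not state the Hdac3 allele, the age of the animals, the number pooled or the share of cells that lost the gene, and a peak list cannot measure the last of these. Since each group had 1 library, differences below are between 2 libraries and have no replicate check.

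Actin filaments grow at their barbed ends, where capping protein, a heterodimer of an alpha subunit (Capza1 or Capza2) and a beta subunit (Capzb), stops the addition of monomers. Alpha-actinins and filamins tie filaments into bundles and networks, and alpha-actinin also anchors stress fibres at adhesions. In chondrocytes the actin cytoskeleton sets cell shape: rounded cells keep the cartilage phenotype, while spread cells with stress fibres tend to lose it. HDAC3, a histone deacetylase of the NCoR and SMRT corepressor complexes, removes acetyl groups from histones.

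Peak numbers, covered length and the depth at a summit are used throughout. Covered length is the summed width of the peaks of one list. Summit pileup is the number of fragments over the summit, recovered from the authors' fold enrichment and −log10 p-value, and it was a whole number for 100% of peaks in both lists within a tolerance of 0.001. The median pileup was 12 in both libraries, and the commonest expected pileup was 1.01 (Cre) and 0.949 (GFP), which differ by a ratio of 1.06. Pileups below are not scaled for this ratio. At such low counts a region missing from a list can lie just under the caller's threshold. Intervals on shares cover counting error only. They treat peaks as independent, which neighbouring peaks of one gene need not be. All 15 chondrocyte marker genes had peaks, with a summed covered length of 60652 bp (Cre) and 68467 bp (GFP). Peaks were found at 1 of 11 skeletal muscle markers (208 and 363 bp), 2 of 8 macrophage markers (192 and 768 bp), 1 of 7 endothelial markers (383 and 707 bp) and 1 of 7 osteoblast markers (295 and 604 bp). The markers with peaks were Tnnt3 (skeletal muscle), Cd68 and Cd14 (macrophage), Erg (endothelium) and Sp7 (osteoblast). Among those with none in either list were Myod1, Myog, Ptprc, Csf1r, Pecam1, Cdh5 and Ibsp. Of 8 smooth muscle markers 4 had peaks (2082 and 1866 bp), mostly at Smtn, and Myh11 and Myocd had none. The part of other cell types in the results was not tested.

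Upstream sequence is shown for the 3 members whose window in the RefSeq promoter table (GRCm38.p6) reaches beyond every annotated gene, to set Actn4, the member with the most peaks, beside its paralog Actn1 and the capping subunit gene Capza2, which have none. Each runs 5′ to 3′ on the gene's strand and ends at the annotated gene edge. Capitals mark motif matches on either strand.
Actn4: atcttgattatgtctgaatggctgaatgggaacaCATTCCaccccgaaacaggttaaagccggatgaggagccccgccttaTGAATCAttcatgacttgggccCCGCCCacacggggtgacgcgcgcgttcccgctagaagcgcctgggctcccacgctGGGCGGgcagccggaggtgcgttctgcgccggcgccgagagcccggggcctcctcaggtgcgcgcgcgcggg
Actn1: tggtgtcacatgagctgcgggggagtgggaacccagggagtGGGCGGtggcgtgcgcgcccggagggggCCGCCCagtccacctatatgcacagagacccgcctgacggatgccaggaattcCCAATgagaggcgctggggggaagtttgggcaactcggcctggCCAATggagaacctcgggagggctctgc
Capza2: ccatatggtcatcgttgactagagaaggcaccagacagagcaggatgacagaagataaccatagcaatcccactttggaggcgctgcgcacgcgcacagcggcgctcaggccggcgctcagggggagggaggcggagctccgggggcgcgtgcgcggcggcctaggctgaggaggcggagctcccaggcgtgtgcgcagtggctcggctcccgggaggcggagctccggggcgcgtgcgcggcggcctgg

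The Actn4 window is chr7:28962352-28962582 on the minus strand (231 bases), the Actn1 window chr12:80260421-80260613 on the minus strand (193 bases) and the Capza2 window chr6:17636760-17637009 on the plus strand (250 bases). Their GC content was 65.8%, 66.8% and 70.4%. None of the 3 windows overlapped a peak of either list. The motifs searched were the GC box (GGGCGG), AP-1 (TGANTCA), TEAD (GGAATG), the CCAAT box (CCAAT), the TATA box (TATAAA), YY1 (AANATGGC), ETS (CCGGAA) and the CArG box, the site of serum response factor. The Actn4 window held 2 GC boxes, 1 AP-1 match and 1 TEAD match, and the Actn1 window held 2 GC boxes and 2 CCAAT boxes. Capza2 had no match to any of the 8, and no marked matches overlapped each other. Among 21262 windows of the full 250 bases before protein-coding gene starts, 42.6% held a GC box, 35.4% a CCAAT box, 6.13% an AP-1 match, 11.7% a TEAD match and 1.39% a CArG box. The TATA box, YY1 and ETS letters were in 11.6%, 3.65% and 14.99%. Of the 8 members, 6 had an entry in the promoter table, and Synpo and Actb did not.

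Acetylation was concentrated in 3 of the 8 genes. Actn4, Synpo and Capzb together held 98 of the 105 Cre peaks and 75 of the 81 GFP peaks. Actb, Capza1 and Flna each held between 1 and 3 peaks per library, and Actn1 and Capza2 held none. Peaks within reach were thus found at 6 of the 8 members, where 32.3% of all protein-coding genes had one. Summed over the members, covered length was 26105 bp (Cre) and 19878 bp (GFP), a Cre share of 56.8%. The median Cre share of covered length per member with a peak was 47.3%. The Cre share of peak numbers was 56.5% (exact Clopper-Pearson 95% interval 49.0 to 63.7), and without Capzb it was 50.6% (42.6 to 58.6). Having at least 10 peaks in the 2 lists together, as Actn4, Synpo and Capzb did, was seen in 2.89% of protein-coding genes. Over all of these genes the Cre share of covered length was 49.5%.

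**Figure D1:**
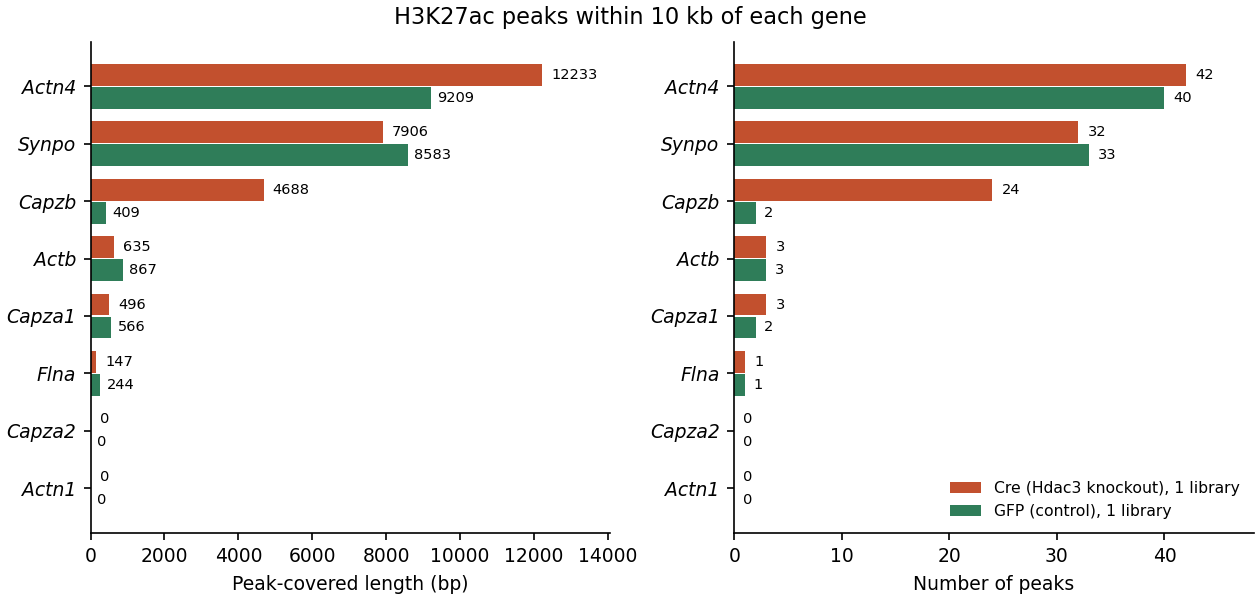
Covered length in bp (left) and number of peaks (right) within 10 kb of each gene, with 1 bar per library. Actn4 and Synpo have long bars in both libraries, Capzb has 24 Cre peaks and 2 GFP peaks, and Actn1 and Capza2 have none.

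Actn4 carried dense acetylation along most of its body in both cultures. It encodes the non-muscle alpha-actinin-4, a dimeric crosslinker of stress fibres and adhesions, and lies at chr7:28893248-28962351 (GRCm38.p6) on the minus strand. The Cre library had 42 peaks covering 12233 bp and the GFP library 40 peaks covering 9209 bp. Every one had its summit inside the gene, and the flanks held none. Covered length per kb of the gene with its flanks was 137 bp (Cre) and 103 bp (GFP). By covered length of both lists together Actn4 ranked 13 of 21883 genes, next below Aff3 and next above Col11a1. Having at least 50 peaks in the 2 lists together, as Actn4 and Synpo did, was seen in 0.119% of protein-coding genes.

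These peaks fell into 5 clusters, a cluster being at least 3 peaks of the 2 lists chained by gaps of at most 2 kb. The largest ran from 496 to 17112 bp downstream of the gene start. It held 21 Cre peaks over 5943 bp and 15 GFP peaks over 3397 bp, and ranked 28 by covered length among all clusters of the genome. The next, from 30043 to 39836 bp, held 11 Cre and 12 GFP peaks over 3356 and 3205 bp, and ranked 60. The cluster between them, from 19146 to 27636 bp, held 4 Cre and 6 GFP peaks over 1000 and 1083 bp. A cluster from 42619 to 45114 bp had 1219 and 813 bp, and the one nearest the 3′ end 257 and 526 bp. The last of these also lies within 10 kb of Capn12, whose annotated end overlaps that of Actn4. Most of the longer Cre cover of Actn4 thus lay in the cluster nearest the start.

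By 10 kb steps from the gene start, the difference was widest from 10 to 20 kb, with 11 Cre peaks over 3228 bp and 6 GFP peaks over 1525 bp. Between 20 and 30 kb the order was the other way, with 3 Cre peaks over 808 bp and 6 GFP peaks over 1083 bp. From 30 to 40 kb the libraries had 11 and 12 peaks. Long non-coding RNA genes annotated within Actn4 overlap both large clusters: Gm51446 overlapped peaks covering 3720 bp (Cre) and 2089 bp (GFP), and Gm38978 overlapped 1037 and 1173 bp.

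**Figure D2:**
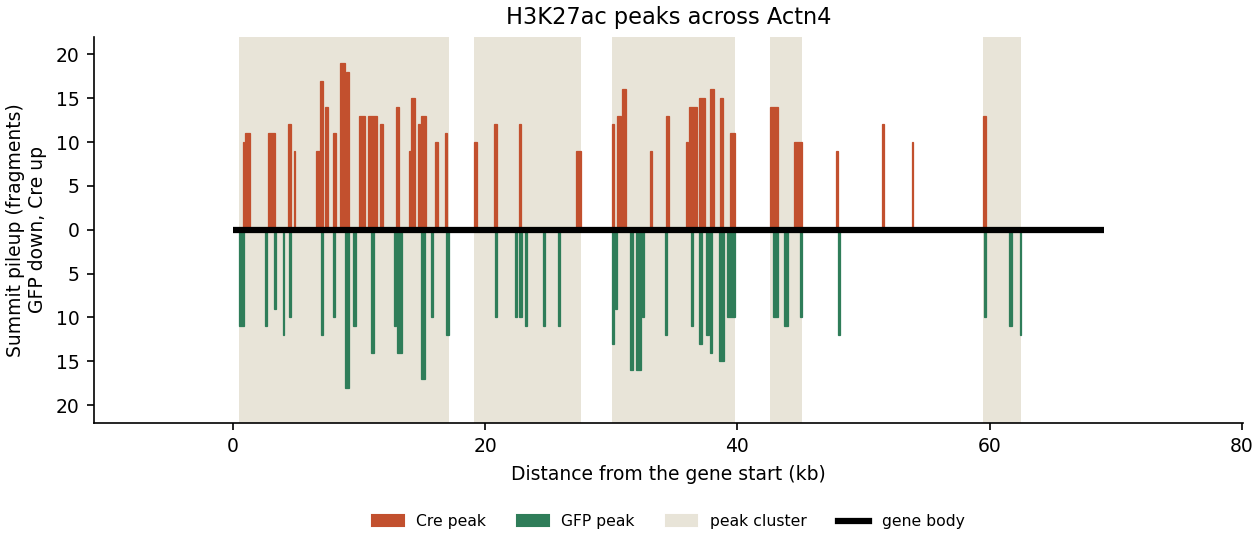
Peaks across Actn4 by distance from the gene start in kb, drawn at their width with the summit pileup in fragments as height (Cre up, GFP down). Shaded spans are the 5 clusters and the black line is the gene body. The largest clusters, with peaks of both libraries, run from 496 to 17112 bp and from 30043 to 39836 bp.

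By pileup, the highest Actn4 summits lay about 9 kb downstream of the start in both libraries. The Cre peak of highest fold, at chr7:28953480-28953802, had a fold of 9.96 and a pileup of 19, and ranked 466 in its list. It had no overlapping GFP peak. Beside it, the Cre peak at chr7:28953158-28953326 (pileup 18) and the GFP peak at chr7:28953158-28953429 (pileup 18, fold 9.14) began at the same base. The GFP peak of highest fold, at chr7:28947107-28947390, had a fold of 9.23 and a pileup of 17, and the overlapping Cre peak had a pileup of 13. Nearest to the gene start lay a Cre peak at chr7:28961414-28961562 with a pileup of 10 and its summit 837 bp downstream. The GFP peak overlapping it, at chr7:28961424-28961836, had a pileup of 11 and its summit 864 bp downstream. Of the Cre peaks in Actn4, 24 of 42 overlapped a GFP peak (57.1%, 41.0 to 72.3), and of the GFP peaks 24 of 40 overlapped a Cre peak (60%, 43.3 to 75.1). The backgrounds over whole lists were 40.7% and 41.4%. Nearly all Actn4 peaks had a peak of the other list within 1 kb, 38 (Cre) and 36 (GFP). A whole-list share for this distance is not given here, and where peaks lie this densely a neighbour within 1 kb is likely. In the 24 overlapping pairs the pileup was higher in the Cre library in 14, higher in the GFP library in 6 and equal in 4. The pileup differences, unscaled, ran from -4 to 5 fragments with a median of 1. By fold the order was reversed in some of these pairs, in both directions.

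Actn1, which encodes the other non-muscle alpha-actinin, had no peak in either library. It lies at chr12:80167542-80260420, and the nearest peaks were 54676 bp (Cre) and 35228 bp (GFP) away. From 10 to 250 kb beyond the gene there were 8 Cre and 16 GFP peaks, and out to 1000 kb the order was the other way, 32 and 24. The muscle alpha-actinin genes Actn2 and Actn3 also had none, so Actn4 held every peak of the family.

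Synpo, encoding the actin- and actinin-binding protein synaptopodin, was acetylated at nearly the same length in both cultures. The gene lies at chr18:60593981-60660173, and its strand is not in the tables used here. The Cre library had 32 peaks covering 7906 bp and the GFP library 33 peaks covering 8583 bp, a Cre share of 47.9%. Per kb of the gene with its flanks this was 91.7 and 99.6 bp. Synpo ranked 16 in total covered length, between Csgalnact1 and Niban2. Inside the gene body lay 26 Cre and 29 GFP summits, and outside it 6 and 4.

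Synpo had 6 clusters. The largest, at chr18:60643886-60654268, held 9 Cre peaks over 2701 bp and 10 GFP peaks over 3311 bp, and ranked 75 in the genome. The cluster at chr18:60612619-60617516 held 5 peaks of each list over 1308 and 1495 bp, and the one at chr18:60628177-60634690 held 7 and 6 peaks over 1471 and 1304 bp. At chr18:60620129-60626137 there were 5 Cre peaks over 903 bp and 3 GFP peaks over 530 bp, and at the upper gene end 2 and 3 peaks over 547 and 904 bp. Each of these 5 clusters held peaks of both libraries.

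The ends of the Synpo neighbourhood differed more. In the first 10 kb from the lower gene end the GFP list had 1 peak and the Cre list none. From 70 to 80 kb from the lower end the Cre list had 4 peaks over 976 bp and the GFP list 1 peak over 147 bp. These 5 lay within the long non-coding RNA gene G630071F17Rik, 3237 bp beyond the upper end. The Cre peak of highest fold in the neighbourhood was among them, at chr18:60668607-60668785, with a fold of 10.96 and a pileup of 21, and no GFP peak overlapped it. This cluster runs past the 10 kb limit, and in full it held 5 Cre peaks over 1418 bp and 3 GFP peaks over 532 bp. At the limit, the outermost Cre peak taken in was 9857 bp from Synpo (fold 5.08) and the first left out 10439 bp away (fold 8.47). For the GFP list these distances were 9245 bp (fold 7.70) and 10485 bp (fold 8.72).

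**Figure D3:**
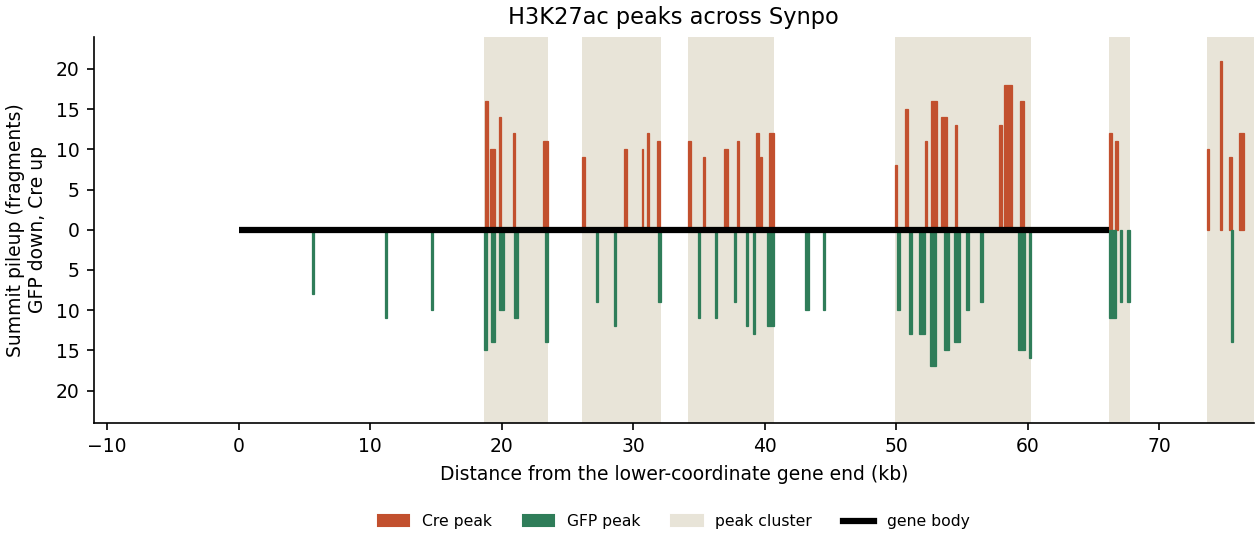
Peaks across Synpo by distance from the lower-coordinate gene end in kb, with summit pileup in fragments as height (Cre up, GFP down), clusters shaded and the gene body as a black line. The 2 libraries share the large cluster near 50 to 60 kb, and beyond the gene the Cre list has 4 peaks at 70 to 80 kb against 1 in the GFP list.

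At single sites Synpo was less alike in the 2 libraries than its totals. Of the Cre peaks 15 of 32 overlapped a GFP peak (46.9%, 29.1 to 65.3), and of the GFP peaks 14 of 33 did so (42.4%, 25.5 to 60.8), close to the backgrounds of 40.7% and 41.4%. Among GFP peaks with 14 or more fragments 8 of 9 overlapped, and among those with 7 to 10 fragments 2 of 13. The Cre peaks gave 5 of 8 and 2 of 10. In Actn4 the same classes gave 6 of 8 and 10 of 13 for the GFP peaks, and 8 of 12 and 3 of 12 for the Cre peaks. Whole-list shares by class are not given here, so these counts cannot be called particular to either gene. In the 15 overlapping pairs of Synpo the pileup was higher in the Cre library in 6, higher in the GFP library in 7 and equal in 2. The GFP peak of highest fold, at chr18:60654115-60654268, had a fold of 8.72 and a pileup of 16, with no overlapping Cre peak.

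Capzb had nearly all of its peaks in the Cre list. It encodes the beta subunit of capping protein and lies at chr4:139192899-139291820 on the plus strand. The Cre library had 24 peaks covering 4688 bp and the GFP library 2 peaks covering 409 bp. Per kb of the gene with its flanks this was 39.4 and 3.44 bp. The Cre share was 92.0% of covered length and 92.3% of peaks (74.9 to 99.1). With 100 bp added to both libraries, the covered length was 9.41-fold longer in the Cre library. Capzb was the 1 member at least 2-fold longer in the Cre library, and 25.5% of genes with a peak were. No member was at least 2-fold longer in the GFP library, and 26.3% of genes with a peak were. By Cre minus GFP length Capzb ranked 7 of 21883 genes. No Cre peak of Capzb overlapped a GFP peak, 0 of 24, beside 40.7% of all Cre peaks. A count of 0 allows a share of up to 12.5%, taken as 3 counts of the 24. With 2 GFP peaks at the gene, few overlaps were possible.

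**Figure D4:**
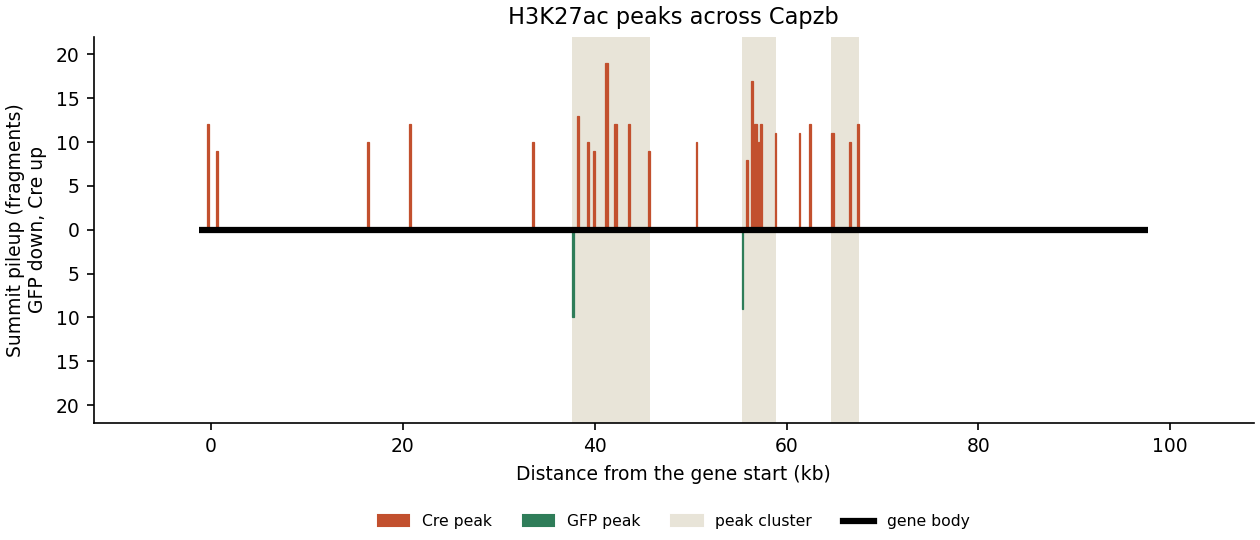
Peaks across Capzb by distance from the gene start in kb, with summit pileup in fragments as height (Cre up, GFP down), clusters shaded and the gene body as a black line. The 24 Cre peaks run from the gene start to 67550 bp, and the 2 GFP peaks stand at the edges of the 2 larger clusters.

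Of the 24 Cre peaks of Capzb, 16 lay in 3 clusters, as did both GFP peaks. One cluster, 37581 to 45734 bp downstream of the gene start, held 7 Cre peaks over 1505 bp and 1 GFP peak of 265 bp. A second, from 55335 to 58895 bp, held 6 Cre peaks over 1149 bp and 1 GFP peak of 144 bp. The last, from 64658 to 67550 bp, held 3 Cre peaks over 658 bp and no GFP peak. Downstream of that the gene had no peak in either list. A pair of Cre peaks lay within 1 kb of the gene start, with summits 381 bp upstream (chr4:139193692-139193861, pileup 12) and 667 bp downstream (chr4:139194639-139194785, pileup 9). The GFP list had none there, and the first summit lies inside the annotated gene, whose lower edge is upstream of the start used here.

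Most Capzb peaks were close to the median pileup of their library. The highest folds in the Cre list were 9.29 at chr4:139235174-139235493 (pileup 19, rank 771 in its list) and 8.96 at chr4:139250401-139250658 (pileup 17, rank 833). The other Cre peaks had pileups from 8 to 13, and the median over all 24 was 11. The GFP peaks, at chr4:139231692-139231956 and chr4:139249446-139249589, had pileups of 10 and 9, and lay 325 and 290 bp from the nearest Cre peak. A −log10 q-value of 5 or more was reached by 12 of the 24 Cre peaks, covering 2647 bp, and by neither of the 2 GFP peaks. The whole-list shares at this cut are not given here, and 2 peaks are too few for a comparison. Summed over the summits, the Cre peaks had 273 fragments and the GFP peaks 19. The sequence around Capzb, from 10 to 250 kb beyond the gene, held 8 Cre peaks over 2149 bp and 4 GFP peaks over 1103 bp. Out to 1000 kb it held 18 and 10. On chromosome 4 as a whole the Cre share of peaks was 52.0%.

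The alpha subunit genes, whose products pair with that of Capzb, had short cover near the start or none. Capza1 (chr3:104822781-104864505, minus strand) had 3 Cre peaks over 496 bp and 2 GFP peaks over 566 bp, all within 1 kb of its start. The start abuts St7l, a gene that begins at the next base, so the same peaks belong to both genes' starts. Downstream of the Capza1 start, the Cre peak at chr3:104864190-104864336 (pileup 13) and the GFP peak at chr3:104864187-104864341 (pileup 16, fold 7.68) nearly coincided, with summits 250 and 245 bp from the start. Upstream, on the St7l side, the Cre peak at chr3:104864534-104864709 had a pileup of 16 and a fold of 8.47. The GFP peak there, at chr3:104864548-104864958, was wider, 411 against 176 bp, with a pileup of 13. A further Cre peak at chr3:104863893-104864065 (pileup 10) had no GFP counterpart. Over the gene body alone, which leaves out the St7l side, the order of covered length was the reverse, 320 bp (Cre) and 155 bp (GFP). Capza2, the other alpha subunit gene (chr6:17637010-17666972), had no peak in either list. The nearest were 218154 bp away in the Cre and 26660 bp away in the GFP list.

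Actb was marked near its upper-coordinate end in both libraries. Beta-actin is the main cytoplasmic actin of most non-muscle cells. The gene lies at chr5:142903115-142907976, and its strand is not in the tables used here. The Cre library had 3 peaks over 635 bp and the GFP library 3 peaks over 867 bp. Both lists had their highest peak near the same place: chr5:142906906-142907109 in the Cre list, with a pileup of 17 and a fold of 8.96, and chr5:142906932-142907348 in the GFP list, with a pileup of 21 and a fold of 11.3. The GFP peak ranked 336 in its list and was the highest pileup of the GFP list in any member. A second overlapping pair, at chr5:142906278-142906561 and chr5:142906363-142906648, had pileups of 12 and 10. The last Cre peak, at chr5:142907259-142907405 (pileup 10), overlapped the same wide GFP peak. The remaining GFP peak, at chr5:142895659-142895822 with a pileup of 11, lay inside the neighbouring gene Fbxl18. Counting peaks whose −log10 q-value reached 5, the order turned to 488 bp (Cre) and 417 bp (GFP).

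Flna, encoding filamin A, a large crosslinker that makes orthogonal actin networks, had 1 weak peak in each list. The gene lies at chrX:74223461-74249854 on the minus strand. The Cre peak, at chrX:74244511-74244657, had a pileup of 10 and a fold of 5.48, and the GFP peak, at chrX:74245432-74245675, a pileup of 9 and a fold of 5.13. They did not overlap, and lay 775 bp apart, with summits 1938 and 899 bp downstream of the start. Neither reached a −log10 q-value of 5. Chromosome X held few peaks in both libraries, 0.701% (0.565 to 0.859) of the Cre and 0.761% (0.618 to 0.927) of the GFP list, and 4.41% of protein-coding genes.

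Overlapping peaks of the 2 lists were found in Actn4, Synpo, Actb and Capza1. Over all 8 members 44 of 105 Cre peaks (41.9%, 32.3 to 51.9) and 42 of 81 GFP peaks (51.9%, 40.5 to 63.1) overlapped the other list, beside 40.7% and 41.4% over the whole lists. Without Capzb the Cre share was 54.3% (42.9 to 65.4). The 44 overlapping pairs had a higher unscaled pileup in the Cre library in 22 and in the GFP library in 16, with 6 equal. By fold, which is relative to the expected pileup, the order was reversed in some of these pairs, so the pileups show no clear lean. The pileup differences ran from -11 to 5 fragments with a median of 0.5. The widest was an Actb pair with 10 Cre and 21 GFP fragments, whose summits lay 331 bp apart. Its GFP peak also overlapped another Cre peak, with 17 fragments and a summit 29 bp away. Over the 44 pairs, the summits lay a median of 107.5 bp apart. The smallest peak width was 147 bp (Cre) and 144 bp (GFP). Of the Actn4 peaks, 4 of 42 (Cre) and 11 of 40 (GFP) had that width, beside 17.8% and 16.9% over the whole lists.

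Other genes of the actin system were read in the same way, from lists with 153 different genes, the 8 members included. Of these 92 had a peak in either list, and 21 were at least 2-fold longer in Cre and 22 in GFP, against backgrounds of 25.5% and 26.3% of genes with a peak. Without the members, the other 145 genes had a summed covered length of 56123 bp (Cre) and 51516 bp (GFP). The median Cre share per gene with a peak was 50.1%, and over all protein-coding genes it was 49.6%.

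Crosslinker genes differed in which library covered them longer. Of 13 crosslinker and bundler genes outside the alpha-actinins and filamins 8 had peaks, with 9468 and 8398 bp. Lasp1, a LIM and SH3 protein gene, had 1871 and 925 bp, while Lima1 had 610 and 1371 bp. Macf1, a linker of actin and microtubules, had 3821 and 4013 bp. The synaptopodin family and actinin partners had peaks at 8 of 13 genes (10504 and 10376 bp), of which Synpo held 7906 and 8583 bp. In the 4 alpha-actinin genes the 12233 and 9209 bp were those of Actn4.

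Barbed-end cappers had a Cre share of 68.1%, on 9844 and 4610 bp at 10 of 16 genes. Capzb held 4688 and 409 bp of this. Eps8, a capping and bundling protein gene, had 8 Cre peaks over 2065 bp and 1 GFP peak over 165 bp. Scin, the scinderin gene, had 733 and 1084 bp, and Capg 452 and 672 bp. The median Cre share of the list, 46.2%, was under 50%, while its sum was led by Capzb and Eps8. Regulators of capping protein had peaks at 4 of 8 genes (1144 and 932 bp), with Carmil1, an uncapping protein gene, at 784 and 588 bp. Pointed-end cappers had peaks at 2 of 7 genes (336 and 376 bp).

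Actin genes other than Actb had few peaks. Actg1, the second cytoplasmic actin gene, had 625 and 621 bp, and the muscle actin genes Acta1 and Actc1 had none. The list of 7 held 1601 and 1886 bp. Nucleators and branching factors had peaks at 18 of 24 genes (8075 and 6107 bp), with the formin gene Diaph1 at 2199 and 901 bp and Actr3, of the Arp2/3 complex, at 973 and 1305 bp. Monomer-binding and disassembly genes had peaks at 7 of 14 (5120 and 5008 bp), with Cap1 at 1515 and 799 bp and Wdr1 at 718 and 1038 bp.

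Myosin light chain and adhesion genes included some with longer GFP cover. Tropomyosin, calponin and contractility genes had peaks at 10 of 16 (10763 and 11718 bp). Myl12a, a regulatory light chain of non-muscle myosin, had 5 Cre peaks over 1099 bp and 8 GFP peaks over 2305 bp, whereas Myh9, a heavy chain, had 4651 and 3465 bp. Adhesion linkers had peaks at 9 of 14 genes (4552 and 4982 bp), with Pxn, the paxillin gene, at 367 and 1420 bp and Enah at 955 and 371 bp.

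**Figure D5:**
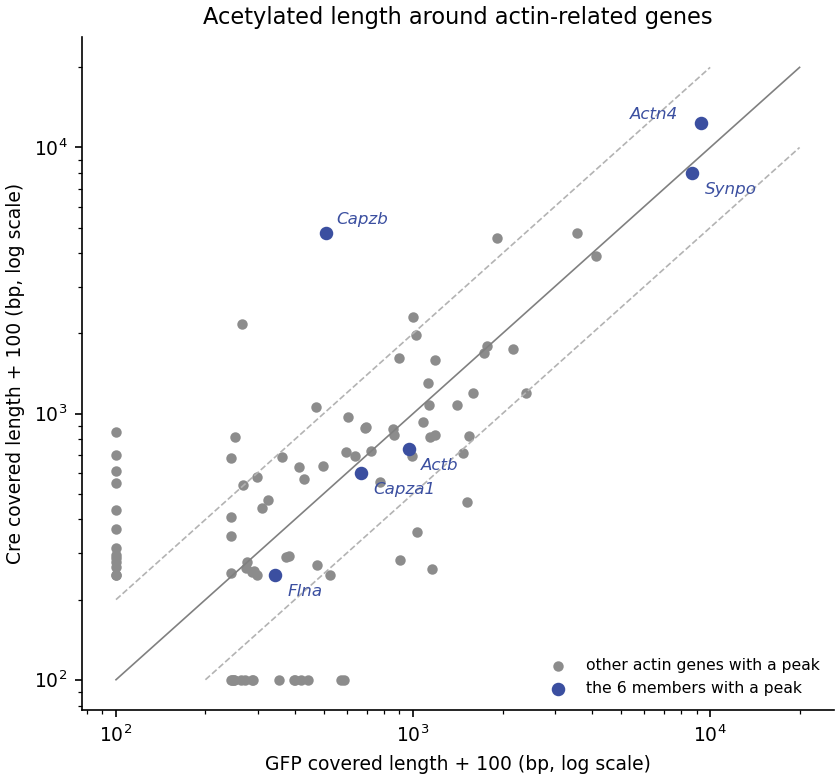
Covered length in the Cre against the GFP library for actin-related genes with a peak, each with 100 bp added, on log axes (1 point per gene; solid line equal, dashed lines 2-fold). Capzb lies far above the 2-fold line, and the other 5 members with a peak lie between the dashed lines.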

How the data were processed

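H3K27ac peak lists of 1 Cre and 1 GFP library were analysed, called per library. Tools listed in the submitters' processing notes are BWA, Picard, SICER and bcl2fastq 1.8.4, with the build mm10, while the lists have the column order of MACS2 output. The peak caller's version, settings and control, and total reads, were not given in the sources used here. The deposited lists give each peak's score (10 times the −log10 q-value, cut to a whole number), its fold enrichment (a ratio at the summit), and −log10 p-value and −log10 q-value. These are the authors' values, ranked only within a list.

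Genes, upstream sequences and starts came from RefSeq GRCm38.p6, which shares chromosome coordinates with mm10; exons were not used. Positions are 1-based. A peak counted whole where it overlapped the gene or its 10 kb flanks, and overlap between lists needed 1 bp. Pileup solved fold = (pileup + 1)/(expected + 1) with a Poisson tail, and 100% of 2000 simulated peaks were recovered. Intervals are exact Clopper-Pearson at 95%. Python 3.11.15, pandas 2.3.3 and scipy 1.17.1 were used.

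Members and lists were chosen with earlier results of these data known. Named were all members, their highest-fold peaks, peaks within 1 kb of a start, and per list up to 2 genes per direction of greatest difference with at least 1000 bp in total, or genes without peaks. Neighbours in rank of covered length were also named. Alternatives changed the flank, peak strength, overlap, cluster gap and fold. Other peaks described in detail were chosen after their values were seen. Results of 2 of the lists are not reported here.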

Additional observations from a re-analysis of the deposited data

How the results depend on the processing

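The Cre share of member peaks (56.5%) and of covered length (56.8%) stayed above 50% with the gene body alone, 50 kb flanks, −log10 q-values from 5 upward, summits of at least 15 fragments and peaks merged within 500 bp. They also did so when Capzb, Actn4 or Synpo was left out in turn, alternatives added after seeing the data. Only Capzb and Actn4 had shares of covered length above 50%. The shares were 47.9% for Synpo, 46.7% for Capza1, 42.3% for Actb and 37.6% for Flna. Capzb and Actn4 were not left out together, but these lower shares mean that the share of covered length would then be under 50%. The Cre share above 50% thus rests on these genes. With 50 kb on each side, 2 members were at least 2-fold longer in the Cre library (Capzb and Flna) and 2 in the GFP library (Actn1 and Capza2), where wider windows take in peaks of other genes. Requiring at least 50% of both peaks to be shared gave overlap shares of 21.0% (Cre) and 27.2% (GFP), and a peak of the other list within 1 kb gave 73.3% and 86.4%. Whole-list shares under these rules are not given here, and those quoted above are for an overlap of 1 bp. The 16 clusters became 9 with gaps of up to 5 kb, which join neighbours by construction. The Cre share of Capza1 turned from 46.7% to 67.4% both with the gene body alone and with only the peaks nearest to the gene, and that of Actb from 42.3% to 53.9% when only peaks with −log10 q-values from 5 upward were kept. The Capza1 share rests on 5 peaks and the Actb share on 6. For Capzb the share was 100% at that q-value, which its 2 GFP peaks did not reach. No paired analysis was possible because each group had 1 library. Depth limits each call, since member summits had 8 to 21 fragments.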
